A study of Mus musculus with 7 samples.

Results

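This account describes mouse livers 4 weeks after a virus carrying the Cre recombinase was given to remove the Dicer1 gene from hepatocytes, set against livers of control mice. The members are the arrays labelled as control (0 weeks, 3 arrays) and as 4 weeks after the virus (2 arrays), which makes 5 of the 7 arrays of the study. All 16819 genes with a single name on the array were compared, each by the probe set with the highest mean over the 7 arrays. The remaining 2 arrays, from 2 weeks after the virus, entered the fit as a group of their own and are quoted where a 4 week value is set against them. All mice were males of a mixed 129S4 and C57BL/6 background with both copies of Dicer1 flanked by loxP sites (Dicer1 fl/fl), so the controls carry the floxed alleles too. The treated mice were given AAV8-Ttr-Cre when 8 to 10 weeks old. In this adeno-associated virus of serotype 8, the hepatocyte-active promoter of transthyretin drives Cre. Livers were collected after a fast of 4 hours. There was neither a group given virus lacking Cre nor a control group aged 4 weeks longer, so the virus, Cre itself, 4 weeks of added age and the loss of Dicer1 cannot be told apart. Cells of the liver other than hepatocytes are not the target of this promoter.

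Dicer is the ribonuclease that cuts hairpin precursors into mature microRNAs. A mature microRNA is loaded into an Argonaute protein and pairs through its seed, bases 2 to 8, with sites in messenger RNAs, which are then repressed and broken down. In hepatocytes the best known microRNA is miR-122, by far the most abundant there, and others such as miR-29, let-7, miR-33 and miR-21 have reported targets in matrix, growth and lipid genes. Messenger RNA was measured in whole liver, in which fewer cells of a type and less RNA per cell cannot be told apart. Arrays within a group are biological replicates according to the labels.

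The mature sequences of the microRNAs whose reported targets are described below are given first, because the shared seed is what groups their targets (RefSeq, GRCm38.p6, written 5′ to 3′ with the seed in capitals). The levels of the mature microRNAs themselves were not analysed here. The 3 members of the miR-29 family have 1 seed, as do the 2 let-7 members shown, while the bases after the seed differ. For miR-122 no sequence is shown.
mmu-miR-29a-3p: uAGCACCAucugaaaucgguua
mmu-miR-29b-3p: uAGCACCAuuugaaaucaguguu
mmu-miR-29c-3p: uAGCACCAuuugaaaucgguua
mmu-let-7a-5p: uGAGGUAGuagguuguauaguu
mmu-let-7c-5p: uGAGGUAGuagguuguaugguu
mmu-miR-33-5p: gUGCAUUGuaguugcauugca
mmu-miR-21a-5p: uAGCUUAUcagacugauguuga
The miR-29a-3p sequence lies at chr6:31062673-31062694 on the minus strand, miR-33-5p at chr15:82198127-82198147 on the plus strand, and miR-21a-5p at chr11:86584120-86584141 on the minus strand.

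Between the late and control livers 866 genes rose and 777 fell, which is 5.15% and 4.62% of the genes tested (limma, adjusted p under 0.05). Most of these differences were small: the median size was 1.46-fold in both directions, and 124 of the higher (0.737% of genes tested) and 98 of the lower genes (0.583%) differed by at least 2-fold. Only 13 and 15 differed by 4-fold or more. The 3 control and 2 late arrays did not overlap for any of the 1643 genes, but the same held for 21.6% (higher) and 18.2% (lower) of all genes tested, called or not. The median log2 difference over all genes was 0.008. Replicates of the late and control groups lay close together. The median absolute log2 difference between arrays was 0.077 at 4 weeks and 0.074 to 0.083 among the controls. Between the 2 late arrays 82 genes differed by 1 log2 unit or more. The 2 week arrays lay farther apart, with a median of 0.11 and 141 such genes. They entered the fit, so each SE and p-value rests in part on their spread. Few arrays limit these calls. Leaving out 1 control array left 183 to 266 higher and 111 to 191 lower genes, and leaving out 1 late array left 37 or 56 and 26 or 38. All 1643 genes kept their sign in each of these 5 fits, and 44 passed in every one of them (28 higher, 16 lower), while 1089 passed in none. Where a gene below passed in all 5 fits this is stated, and each other named call was lost without at least 1 of the arrays. In a fit of the 5 control and late arrays alone, 24 of 175 named calls missed the threshold (adjusted p 0.0502 to 0.0835): Abcg5, Acacb, Acmsd, Acot2, Cldn2, Clec4g, Ctsc, Cyp3a44, Cyp7a1, Dgat2, Fasn, Fos, Irs1, Klb, Krt8, Mt1, Nadk, Nr1h3, Plin2, Rrm2b, Slc2a2, Sox9, Trp53inp1 and Tuba4a.

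**Figure D1:**
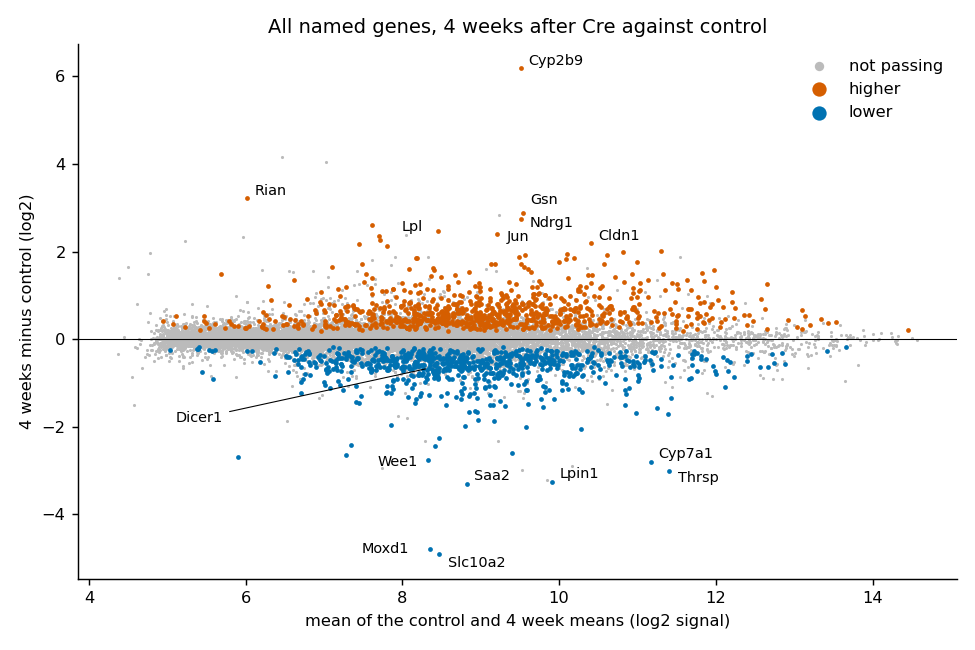
Each point is 1 of the 16819 named genes, placed by the mean of its control and 4 week means (log2 signal, x axis) and by its 4 week minus control difference (log2, y axis), with the 866 higher genes in orange, the 777 lower genes in blue and the rest in grey. Cyp2b9 stands highest at 6.19, Slc10a2 and Moxd1 lowest at -4.92 and -4.80, and Dicer1 sits among many small falls at -0.66.

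The gene targeted by Cre was lower, and the scaffold proteins of microRNA silencing were higher. The Dicer1 signal was 7.97 and 8.05 at 4 weeks, against 8.73, 8.71 and 8.58 in the controls. Both late arrays lay below all controls, 1.58-fold lower (log2 -0.66, SE 0.09, adjusted p = 0.0159, 2 against 3 arrays), and no single-array omission kept the call (adjusted p 0.0521 to 0.091). The remaining signal cannot be assigned to a cell type, and whether the Dicer1 probes lie within the deleted part is not known here. Of 13 genes of microRNA processing and silencing, 3 rose and 1 fell, beside 5.15% and 4.62% of all genes. Their median log2 difference was 0.09. All 3 that rose were the Tnrc6 genes, whose GW182 proteins bind Argonaute and recruit the enzymes that shorten poly(A) tails. Tnrc6a read 8.50, 8.52 and 8.64 in controls and 9.62 and 9.77 at 4 weeks, a rise of 2.21-fold (log2 1.14, SE 0.07, adjusted p = 0.00286), and it passed in all 5 fits that left out 1 array. Tnrc6b rose 1.66-fold and Tnrc6c 1.48-fold, the latter at an adjusted p of 0.0495. Among the processing genes, Drosha was at 0.71 (SE 0.16, adjusted p = 0.0524). Argonaute 2 (Ago2), one of the silencing genes, was at -0.01, with all 5 arrays between 8.25 and 8.30.

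Reported targets of several microRNAs held more higher than lower members, although most members did not pass in 4 of the 5 lists, that of miR-33 being the exception. Over all genes tested 5.15% rose and 4.62% fell, and the median log2 difference was 0.008. Of 27 measured genes reported as miR-122 targets, 9 rose and 0 fell, with a median log2 difference of 0.24. Hjv, the hemojuvelin co-receptor that drives hepcidin expression, read 9.46, 9.78 and 9.68 in controls and 11.01 and 11.22 at 4 weeks, a rise of 2.78-fold (log2 1.47, SE 0.13, adjusted p = 0.00866). The arrays of the groups were far apart for this gene, with more than 1 log2 unit between the highest control and the lower of the late arrays. The membrane proteases Adam10 and Adam17, which shed the outer parts of surface proteins, rose by 1.11 and 0.74 on the log2 scale. Citrate synthase (Cs), the first enzyme of the citric acid cycle, read 10.25, 10.38 and 10.22 and then 10.94 and 11.12 (1.68-fold). Cyclin G1 (Ccng1) rose 1.83-fold, and the microtubule end-binding protein gene Mapre1 1.92-fold. The classical target aldolase A (Aldoa), a glycolytic enzyme, was at 1.07 (SE 0.27, adjusted p = 0.0681) and did not pass.

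Of 9 measured genes reported as miR-33 targets, 6 rose and 0 fell (beside 5.15% and 4.62% of all genes), with a median of 0.68. Most of the 6 handle lipids. Crot, which moves medium-chain acyl groups onto carnitine in peroxisomes, read 11.85, 12.17 and 12.04 in controls and 13.29 and 13.28 at 4 weeks (2.41-fold, log2 1.27, SE 0.09, adjusted p = 0.00573). The cholesterol exporter Abca1 rose 1.61-fold, the lysosomal cholesterol transporter Npc1 1.41-fold, the canalicular flippase Atp8b1 1.91-fold and the bile salt export pump Abcb11 1.88-fold. The sixth, Irs2, is an insulin receptor substrate (1.62-fold). Abcg1 (0.02), Cpt1a (-0.25) and Sirt6 (-0.06) did not pass. Among 25 reported let-7 targets 6 rose and 1 fell, the latter being Dicer1 itself. Cyclin D1 (Ccnd1), which drives cells through G1, read 8.71, 8.60 and 8.50 and then 10.23 and 10.84 (3.8-fold, log2 1.93, SE 0.33, adjusted p = 0.0263). The insulin receptor (Insr) rose 1.6-fold, the type I TGF-beta receptor (Tgfbr1) 1.74-fold and the zinc finger gene Plagl2 1.56-fold. Of the oncofetal let-7 targets Lin28a passed with a small rise (0.25 on the log2 scale), and 4 others did not pass, with Hmga2 at -0.13, Igf2bp1 at -0.11, Igf2bp3 at -0.03 and Lin28b at -0.01.

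Of 26 measured miR-29 targets 3 rose (beside 5.15% of all genes) and 0 fell, with a median of 0.08 beside 0.008 over all genes. Lpl is the lipase that frees fatty acids from circulating triglycerides and the gene named in the study's title. It read 7.10, 7.36 and 7.18 in controls and 9.54 and 9.84 at 4 weeks. The 2 week arrays, whose spread enters the SE, read 9.11 and 10.80. Both late arrays were more than 2 log2 units above every control (log2 2.47, SE 0.47, adjusted p = 0.0338), yet leaving out any 1 of the 5 arrays raised the adjusted p to between 0.104 and 0.17. The DNA methyltransferases Dnmt3a and Dnmt3b rose 1.64- and 1.69-fold. The collagens of this list, which other cells than hepatocytes make in liver, did not pass: the 9 of them measured lay between 0.01 (Col5a3) and 0.35 (Col4a1). Of 11 miR-21 targets 2 rose, Pdcd4, which holds back translation (1.67-fold), and the growth inhibitor Btg2 (2.49-fold), and 0 fell.

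**Figure D2:**
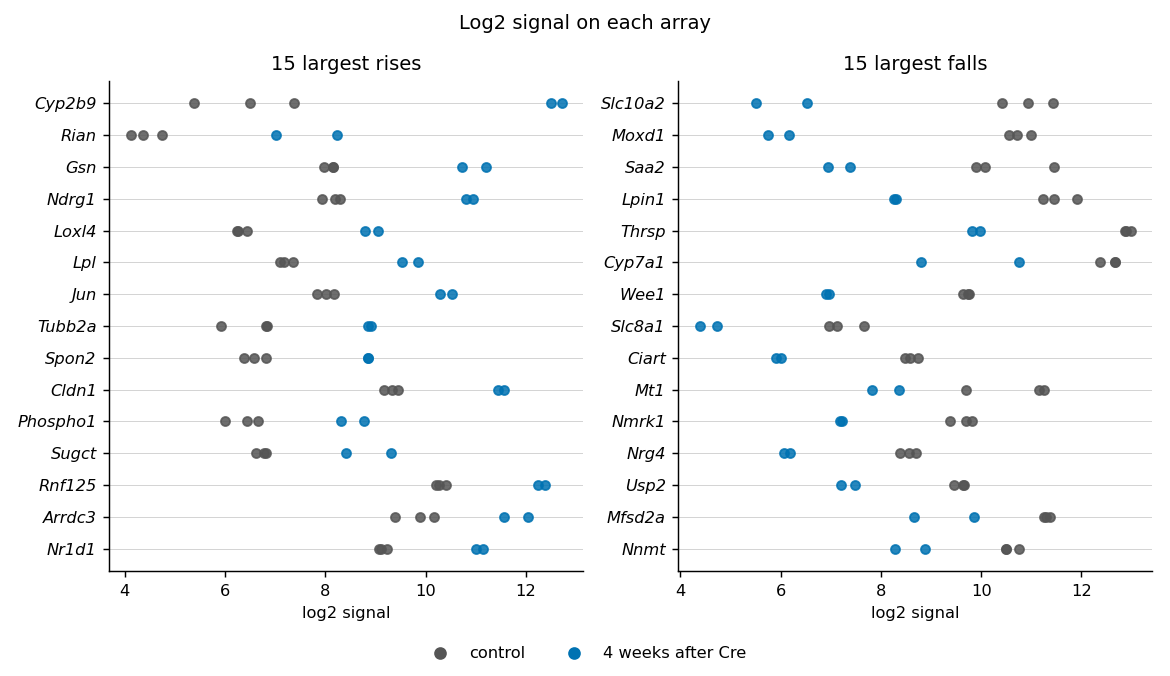
Log2 signal (x axis) of the 15 genes with the largest rises and the 15 with the largest falls, on each of the 3 control arrays (grey) and the 2 arrays at 4 weeks (blue). The colours do not overlap in any row, which the choice of genes requires; the widest gaps are those of Cyp2b9 and Moxd1, and the late arrays lie farthest apart for Cyp7a1, at 8.79 and 10.75.

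Several of the largest changes fell outside the pathways described below. Ndrg1, a stress-responsive gene, read 8.20, 7.94 and 8.29 in controls and 10.94 and 10.81 at 4 weeks, 6.65-fold higher (log2 2.73, SE 0.22, adjusted p = 0.00696). The 2 week arrays read 9.86 and 10.56, between the controls and the late arrays. Sugct, a mitochondrial enzyme that handles glutarate, read 6.81, 6.63 and 6.79 in controls and 9.31 and 8.42 at 4 weeks (log2 2.12, SE 0.25, adjusted p = 0.0123), while the 2 week arrays (6.98 and 6.94) lay close to the controls. The difference between 4 and 2 weeks did not pass for either gene. Rnf125, an E3 ubiquitin ligase, read 10.26, 10.21 and 10.41 and then 12.25 and 12.37 (log2 2.01, SE 0.10, adjusted p = 0.00173) and passed in all 5 fits that left out 1 array. Arrdc3, an arrestin-domain protein that acts on beta-adrenergic receptors, rose 3.96-fold.

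On the falling side, Slc8a1, a sodium-calcium exchanger, read 7.12, 6.96 and 7.67 in controls and 4.39 and 4.74 at 4 weeks (log2 -2.68, SE 0.27, adjusted p = 0.00936). The late values lie near the bottom of the array's range, which runs from 3.15 to 14.7. Mfsd2a, a transporter of lysophosphatidylcholine, read 11.28, 11.26 and 11.37 in controls but 8.66 and 9.87 on the late arrays, 4.12-fold lower (log2 -2.04, SE 0.41, adjusted p = 0.0382). The late arrays differ by more than 1 log2 unit, and without Cre 4 wk replicate 1 the fall is 2.71-fold. The smallest adjusted p-values (0.00156, limma) after that of Wee1 belonged in part to genes with modest changes and tight replicates. Rev3l, the catalytic subunit of the DNA polymerase zeta, read 8.22, 8.26 and 8.23 and then 9.26 and 9.23 (2.02-fold higher). Coq8a, needed for coenzyme Q synthesis, read 10.65, 10.51 and 10.59 and then 12.09 and 12.04 (2.79-fold higher). The endosomal co-chaperone Dnajc13 rose 2.13-fold and Fam160a1 2.25-fold, and Paqr3, a Golgi protein, was 2.45-fold lower at 6.89 and 6.76 against 8.11, 8.14 and 8.10. All 5 of these genes passed in every fit that left out 1 array.

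The circadian clock held the largest share of called members among the lists with 10 or more measured genes. Of 20 clock genes measured, 4 rose and 9 fell, beside 5.15% and 4.62% of all genes, and the median was -0.62. The shorter list of reported miR-33 targets, with 6 of 9 called, held a slightly larger share. The lists were chosen with earlier results of these data known. In the core loop the activators Arntl (BMAL1) and Clock bind E-boxes and drive the Per and Cry repressors, while the ROR and REV-ERB receptors act on Arntl through ROR elements. Arntl read 7.57, 7.21 and 7.06 on the control arrays and 8.96 and 8.80 at 4 weeks, 3.03-fold higher (log2 1.6, SE 0.16, adjusted p = 0.00897). Clock read 8.86, 8.81 and 8.76 and then 9.66 and 9.55 (1.74-fold), and Rora, an activator of Arntl, read 9.59, 9.51 and 9.51 and then 10.06 and 10.10 (1.46-fold). These activators were higher on both late arrays than on any control. The Period repressors went the other way. Per1 read 8.63, 8.27 and 8.53 and then 7.18 and 7.30 (2.35-fold lower), Per2 8.62, 8.79 and 8.76 and then 8.03 and 7.70 (1.81-fold lower), and Per3 7.79, 7.58 and 7.54 and then 6.55 and 6.49 (2.17-fold lower). Ciart, a repressor of the BMAL1 and CLOCK pair, fell furthest within the loop, from 8.58, 8.48 and 8.74 to 5.91 and 6.00 (log2 -2.64, SE 0.25, adjusted p = 0.00867). Its late values lie near the mean level of the T and NK cell and neutrophil markers, so this size describes signal. The cryptochromes did not move beyond their spread, with Cry1 at -0.07 (SE 0.14, adjusted p = 0.813) and Cry2 at 0.02 (SE 0.04, adjusted p = 0.866).

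The outputs of the clock were lower. Of 7 output genes 5 fell (beside 4.62% of all genes) and 0 rose, with a median of -1.67. The kinase Wee1, which delays entry into mitosis and follows the clock in liver, had the smallest p-value of all genes: it read 9.64, 9.74 and 9.75 in controls and 6.97 and 6.91 at 4 weeks (6.82-fold lower, log2 -2.77, SE 0.05, adjusted p = 0.000109). The deubiquitinase Usp2 read 9.67, 9.45 and 9.65 and then 7.2 and 7.47 (4.76-fold lower). Both passed in all 5 fits that left out 1 array. Dbp, a PAR bZIP factor that binds D-boxes, read 9.51, 9.87 and 10.00 and then 8.04 and 8.20 (3.19-fold lower), and its relative Tef fell by 1.29 on the log2 scale. The glucocorticoid-induced gene Tsc22d3 was 3.19-fold lower, while Hlf (-0.38) and Nfil3 (0.44) did not pass. The time of day at which each liver was taken is not given in the labels, and its part in these values was not tested.

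Nr1d1, which encodes the repressor REV-ERB alpha, was the only gene of the 16819 whose difference between 4 and 2 weeks passed (0.00595% of genes tested). With 2 arrays on each side, 1250 genes had an unadjusted p under 0.05 (limma), and others may differ too. For Nr1d1 the 4 week arrays read 11.14 and 11.01, the 2 week arrays 8.27 and 8.59 and the controls 9.11, 9.23 and 9.08. The 2 week arrays lay below all controls and the late arrays above them. At 4 weeks it was 3.83-fold higher than in controls (log2 1.94, SE 0.11, adjusted p = 0.00284, limma) and passed in all 5 fits that left out 1 control or late array. Against 2 weeks it was 6.26-fold higher (log2 2.65, SE 0.12, adjusted p = 0.0155). That second call was lost when any 1 of the 7 arrays was left out. Its paralog Nr1d2 read 9.58, 9.58 and 9.72 in controls and 9.55 and 9.55 at 4 weeks, within 0.17 log2 units of every control, and 7.91 and 8.28 at 2 weeks.

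**Figure D3:**
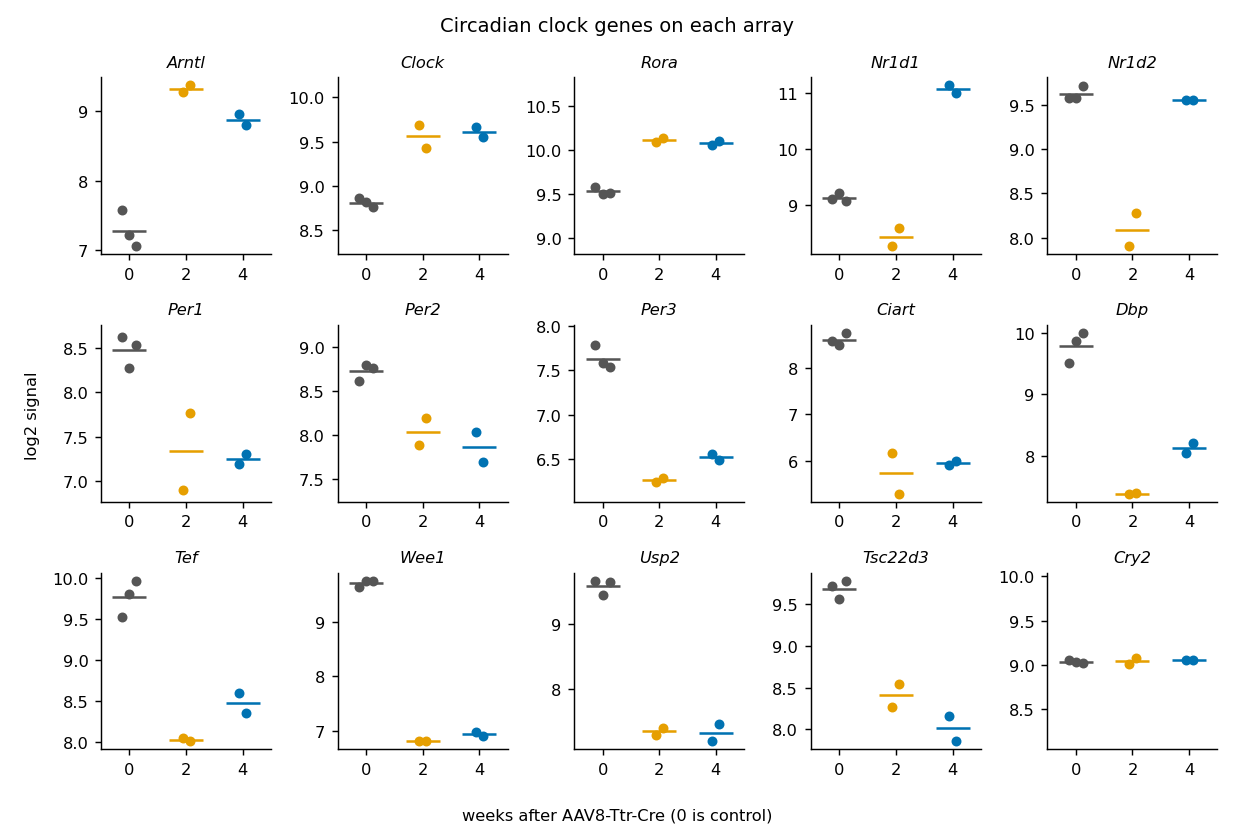
Log2 signal (y axis, scaled per gene) of 15 clock genes at 0 (control), 2 and 4 weeks after the virus (x axis); points are arrays and lines are group means. Arntl, Clock and Rora sit above the controls at both times, Per1 to Per3, Ciart and the output genes below, and Nr1d1 alone moves from below the controls at 2 weeks to above them at 4.

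The promoters of 4 called clock genes that hold a motif of the loop, 3 lower and 1 higher, are printed to show where these motifs lie, taken as 250 bases before to 50 after the annotated start (RefSeq, GRCm38.p6) with motif matches in capitals. Both strands were searched for the E-box CACGTG, the D-box TTANGTAA and the ROR element, a receptor half-site with an A/T-rich lead. Ciart has 3 E-boxes and Tef 1 in the window shown, Per3 has 2 D-boxes, and Arntl has 1 ROR element.
Ciart, chr3:95882179-95882478, minus strand: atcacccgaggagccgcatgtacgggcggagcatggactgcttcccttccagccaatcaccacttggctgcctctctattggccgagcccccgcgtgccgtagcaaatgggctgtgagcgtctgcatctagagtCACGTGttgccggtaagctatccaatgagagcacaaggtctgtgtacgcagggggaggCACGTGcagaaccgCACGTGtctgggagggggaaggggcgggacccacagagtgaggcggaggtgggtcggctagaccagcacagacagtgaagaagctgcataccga
Tef, chr15:81811164-81811463, plus strand: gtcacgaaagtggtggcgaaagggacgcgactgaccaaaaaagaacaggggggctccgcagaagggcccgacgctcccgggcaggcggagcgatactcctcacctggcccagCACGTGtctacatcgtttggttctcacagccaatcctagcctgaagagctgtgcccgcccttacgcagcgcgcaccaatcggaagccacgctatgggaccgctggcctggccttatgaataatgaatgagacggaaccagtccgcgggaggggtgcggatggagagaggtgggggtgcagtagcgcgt
Per3, chr4:151044616-151044915, minus strand: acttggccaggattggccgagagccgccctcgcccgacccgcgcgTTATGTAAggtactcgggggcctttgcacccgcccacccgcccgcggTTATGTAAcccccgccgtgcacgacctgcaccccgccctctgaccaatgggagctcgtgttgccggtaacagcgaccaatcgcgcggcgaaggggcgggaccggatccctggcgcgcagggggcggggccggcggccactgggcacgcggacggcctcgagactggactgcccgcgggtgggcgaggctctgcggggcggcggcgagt
Arntl, chr7:113207261-113207560, plus strand: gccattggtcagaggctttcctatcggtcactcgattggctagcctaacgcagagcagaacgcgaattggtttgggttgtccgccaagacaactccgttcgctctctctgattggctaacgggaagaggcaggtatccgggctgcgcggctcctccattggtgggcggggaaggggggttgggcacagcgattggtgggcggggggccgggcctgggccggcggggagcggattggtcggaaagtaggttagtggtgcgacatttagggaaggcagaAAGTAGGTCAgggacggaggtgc
Of the 7 lower clock genes with a promoter in the table, 3 had an E-box (Ciart, Per1 and Tef), against 8.09% of 27025 genes, and 1 had a D-box, against 2.72%. Of the 6 clock genes that were not called, 2 had an E-box too (Bhlhe41 and Cry1). Of the 4 higher genes 0 had an E-box or a D-box and 1 had a ROR element, against 0.259%. A match describes letters in this window and no measured binding.

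Bile acid genes changed in both directions. Of 34 measured, 7 rose and 2 fell (beside 5.15% and 4.62% of all genes), with a median of 0.08. Bile acids are made from cholesterol, pumped into bile and returned from the gut, and they hold back their own synthesis through the receptor FXR (Nr1h4) and the repressor SHP (Nr0b2). Among 14 synthesis enzymes, Cyp7a1, the rate-limiting step of the classical pathway, read 12.36, 12.68 and 12.67 in controls and 8.79 and 10.75 at 4 weeks. Both late arrays were below every control but 1.96 log2 units apart (log2 -2.80, SE 0.55, adjusted p = 0.0374), and without Cre 4 wk replicate 1 the fall is 3.53-fold. Of the other 13 enzymes Hsd3b7 and Akr1d1 passed, both higher, and the median of the 14 was -0.04. Hsd3b7 read 10.80, 11.05 and 10.99 and then 12.14 and 12.05 (2.22-fold, adjusted p = 0.00797), and Akr1d1 rose 1.44-fold. Cyp7b1, of the alternative pathway, was at -0.91 (SE 0.27, adjusted p = 0.0986), Cyp8b1, which sets the share of cholic acid, at -0.07, and Scp2 at -0.39 (SE 0.10, adjusted p = 0.075).

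Of 15 bile acid and sterol transporters 3 rose and 1 fell, beside 5.15% and 4.62% of all genes. Slc10a2, the sodium-dependent uptake carrier best known from ileum and bile ducts, had the largest fall in log2 signal of all genes. It read 11.44, 10.42 and 10.93 in controls and 6.52 and 5.50 at 4 weeks (30.2-fold lower, log2 -4.92, SE 0.41, adjusted p = 0.00772). Its late values lie near the mean level of the T and NK cell and neutrophil markers (5.64 to 6.24 at 4 weeks), so the fold describes signal and its place against Moxd1 is uncertain. The 2 week arrays read 8.97 and 9.44, between the groups, but the difference between 4 and 2 weeks did not pass. The export pump Abcb11 read 12.19, 11.91 and 12.26 and then 12.92 and 13.14, and Atp8b1, which keeps the canalicular membrane stable against bile acids, read 9.37, 9.35 and 9.50 and then 10.53 and 10.14. Abcg5, a sterol exporter, rose 1.54-fold at an adjusted p of 0.0491. The main hepatic uptake carrier Slc10a1 (NTCP) was at -0.09 (SE 0.05, adjusted p = 0.379). Among 5 regulators, Nr0b2 read 9.60, 9.12 and 8.82 and then 11.33 and 10.69 (3.55-fold higher, log2 1.83, SE 0.28, adjusted p = 0.0213), and Klb, the co-receptor for FGF15 and FGF21, rose 1.61-fold. Nr1h4 was at -0.19 (SE 0.05, adjusted p = 0.087). In the fit of 5 arrays 6 of the 9 bile acid calls passed, and none of the 9 passed in all 5 fits that left out 1 array.

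**Figure D4:**
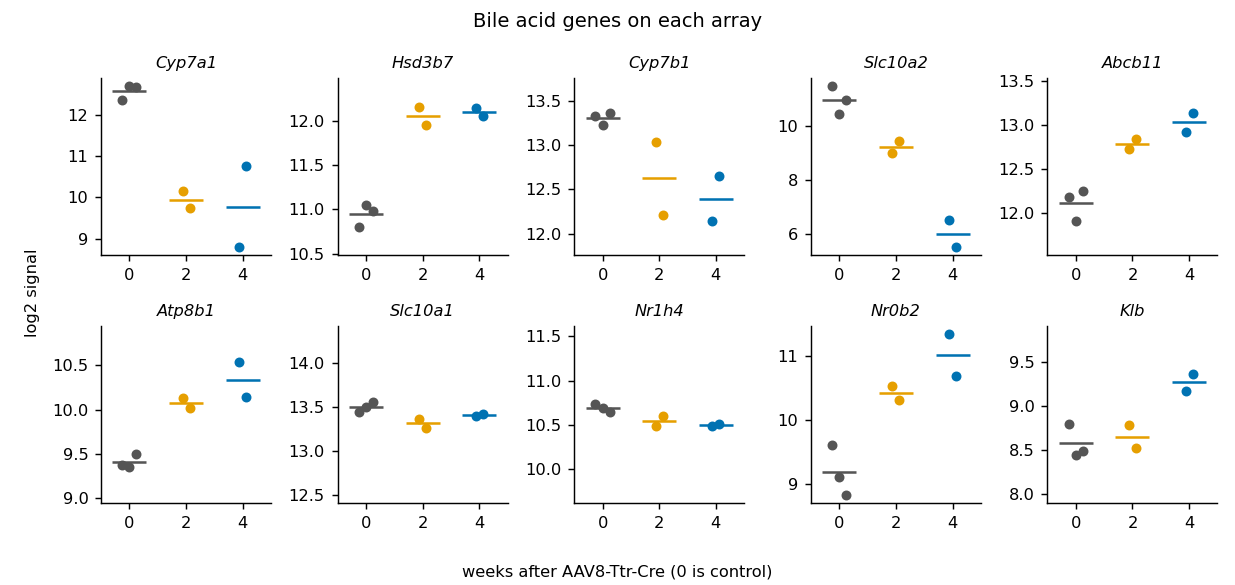
Log2 signal (y axis, scaled per gene) of 10 bile acid genes at 0, 2 and 4 weeks after the virus (x axis); points are arrays and lines group means. Slc10a2 falls from 10.42 to 11.44 in controls to 5.50 and 6.52 at 4 weeks, the 2 late arrays are far apart for Cyp7a1, and Slc10a1 is level across the groups.

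Genes of fatty acid synthesis fell where they changed, with 1 exception. Of 15 fatty acid synthesis genes 6 fell and 1 rose (beside 4.62% and 5.15% of all genes), with a median of -0.30. Thrsp (Spot 14), which promotes lipogenesis, read 12.86, 12.99 and 12.89 in controls and 9.83 and 9.97 at 4 weeks (8.09-fold lower, log2 -3.02, SE 0.13, adjusted p = 0.00156) and passed in all 5 fits that left out 1 array. The elongase Elovl6 read 10.23, 10.44 and 10.44 and then 9.34 and 9.22 (2.12-fold lower). The acetyl-CoA carboxylase gene Acacb fell 1.88-fold, the citrate carrier Slc25a1 1.76-fold and fatty acid synthase (Fasn) 1.57-fold. Of the transcription factors, Nr1h3 (LXR alpha) was 1.26-fold lower, Mlxipl (ChREBP) was 1.48-fold higher and Srebf1 was at -0.22. The desaturase Scd1 was at -0.34 (SE 0.15, adjusted p = 0.244). In the fit of 5 arrays 4 of the 7 calls of this list passed. In triglyceride assembly 2 of 10 genes fell. Lpin1, the phosphatidate phosphatase lipin 1, read 11.92, 11.23 and 11.46 in controls and 8.25 and 8.31 at 4 weeks (9.57-fold lower, log2 -3.26, SE 0.49, adjusted p = 0.0203), whereas Lpin2 was at -0.30 and Lpin3 at 0.02. Dgat2, which adds the last fatty acid, was 1.26-fold lower.

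Other lipid lists held 2 or 3 calls each, beside 9.77% of all genes called in either direction. Of 18 lipid droplet and lipolysis genes 1 rose and 2 fell: the droplet coat gene Plin2 read 11.35, 11.82 and 11.49 and then 12.37 and 12.32 (1.73-fold higher), while seipin (Bscl2) and the monoglyceride lipase Mgll were 1.55- and 1.99-fold lower. Of 17 genes of lipase action and lipid uptake, Lpl and the receptor Lrp1 (1.26-fold) rose and the lipase maturation factor Lmf1 fell (1.45-fold). The fatty acid translocase Cd36 was at 0.72 and Angptl4, an inhibitor of Lpl, at -1.0, and neither passed. Of 12 lipoprotein genes 3 rose and 0 fell, namely Tm6sf2 (2.3-fold), the triglyceride transfer protein Mttp (1.38-fold) and Abca1. Of 23 genes of fatty acid oxidation and ketogenesis 3 rose and 0 fell: Crot, Acot2 (1.82-fold) and Pdk4, the kinase that shuts off pyruvate dehydrogenase, which read 7.17, 6.99 and 7.14 and then 8.25 and 8.01 (2.04-fold). The 10 genes of mitochondrial oxidation held 0 calls, with a median of -0.02, and Ppara was at -0.19. Of 21 cholesterol synthesis genes 1 rose and 1 fell. Insig2, which retains the SREBP precursors in the endoplasmic reticulum, read 11.07, 11.18 and 10.97 and then 12.50 and 12.67 (2.86-fold higher, log2 1.52, SE 0.09, adjusted p = 0.00284) and passed in all 5 fits that left out 1 array. The 16 enzymes had a median of -0.38, with Ebp 1.53-fold lower and the other 15 not passing.

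Glucose genes mostly fell where they changed, with 5 of 19 falling and 1 rising, beside 4.62% and 5.15% of all genes. Pfkfb3, which makes the activator of phosphofructokinase, read 9.29, 8.42 and 8.79 in controls and 6.55 and 7.19 at 4 weeks (3.89-fold lower, log2 -1.96, SE 0.31, adjusted p = 0.0217). Liver pyruvate kinase (Pklr) read 11.83, 12.34 and 12.16 and then 10.95 and 10.57 (2.55-fold lower). Glycogen synthase (Gys2) read 12.30, 12.44 and 12.47 and then 11.63 and 11.60 (1.72-fold lower), and the glucose-6-phosphate carrier Slc37a4 fell 1.54-fold. Pcx, the first enzyme of gluconeogenesis, rose 1.36-fold, while Pck1 was at 0.09 and G6pc at -0.31. In insulin signalling 3 of 11 rose and 1 fell. The receptor Insr read 10.27, 10.39 and 10.36 and then 10.99 and 11.05, and its substrates Irs1 and Irs2 rose 1.6- and 1.62-fold. The downstream kinase Akt1 read 9.41, 9.32 and 9.31 and then 8.75 and 8.76 (1.51-fold lower), and Akt2, the main hepatic form, was at -0.35 and did not pass.

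Phosphatidylcholine and NAD synthesis held many calls for the size of their lists, beside 9.77% of all genes called in either direction. Of 11 phosphatidylcholine genes 5 rose and 1 fell, with a median of 0.27. Choline kinase (Chka), the first step from choline, read 7.44, 7.15 and 7.15 in controls and 9.09 and 9.10 at 4 weeks (3.61-fold, log2 1.85, SE 0.15, adjusted p = 0.00741). Phospho1, a phosphatase of phosphocholine and phosphoethanolamine, read 6.44, 6.65 and 6.00 and then 8.31 and 8.77 (4.51-fold). Lpcat3, which remodels phosphatidylcholine with polyunsaturated chains, rose 1.96-fold and Cept1, the last step, 1.64-fold. Pcyt1a, the step usually held to be rate-limiting, fell slightly (1.22-fold), and Pemt, the alternative route, was at -0.21. Of 11 NAD genes 4 fell and 0 rose. The riboside kinase Nmrk1 read 9.38, 9.70 and 9.81 and then 7.22 and 7.18 (5.39-fold lower, log2 -2.43, SE 0.17, adjusted p = 0.00506). Nnmt, which methylates nicotinamide, read 10.75, 10.50 and 10.50 and then 8.28 and 8.88 (4.0-fold lower). Acmsd, which diverts tryptophan breakdown away from NAD, fell 2.15-fold and the NAD kinase Nadk 1.33-fold, while Nampt, the enzyme of the salvage route, was at -0.67 (SE 0.27, adjusted p = 0.209). Of these 4 calls 2 passed in the fit of 5 arrays.

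Among genes that differ between the sexes in mouse liver, called genes lay on opposite sides for the 2 classes. Of 14 male-biased genes 2 fell (beside 4.62% of all genes) and 0 rose, with a median of -0.64. Both late arrays lay below all controls for 10 of the 14 and above them for 2, beside 18.2% and 21.6% of all genes. Of 15 female-biased genes 2 rose (beside 5.15% of all genes) and 0 fell, with a median of 0.47. Both late arrays lay above all controls for 9 of the 15, beside 21.6% of all genes. They lay below all controls for 2, Cyp17a1 (-1.32) and Fmo2 (-0.26), beside 18.2%, and neither passed. Moxd1, a male-biased monooxygenase homolog, read 10.55, 10.99 and 10.72 in controls and 5.74 and 6.17 at 4 weeks (27.9-fold lower, log2 -4.80, SE 0.20, adjusted p = 0.00156) and passed in all 5 fits that left out 1 array. As for Slc10a2, the late values lie near the mean level of the T and NK cell and neutrophil markers, so the fold describes signal. Complement C6, also male-biased, read 11.86, 11.80 and 11.84 and then 9.63 and 10.64 (3.24-fold lower). Cyp2b9, a female-biased cytochrome P450, read 5.39, 6.50 and 7.38 in controls, a spread of nearly 2 log2 units, and 12.50 and 12.72 at 4 weeks (72.8-fold, log2 6.19, SE 0.83, adjusted p = 0.0163). Its highest control lay more than 5 log2 units below the late arrays. Its lower controls lie near the same marker level, so this fold describes signal too. Cyp2b13, a close relative whose transcripts may share probes with Cyp2b9, was at 4.16 (SE 1.21, adjusted p = 0.0952), and Cyp2b10 at -0.11 (SE 0.28, adjusted p = 0.871). Cyp3a44, the other female-biased gene that passed, rose 1.39-fold. For Hao2, a peroxisomal oxidase, the late arrays differed widely: it read 4.84, 4.74 and 4.81 in controls and 8.53 and 5.73 at 4 weeks (log2 2.33, SE 0.79, adjusted p = 0.136). Major male-biased enzymes did not pass, with Cyp2d9 at -0.04 (SE 0.04, adjusted p = 0.659) and Hsd3b5 at -0.38 (SE 1.25, adjusted p = 0.901). In the growth hormone axis, which sets this dimorphism, Stat5b read 8.97, 8.96 and 9.04 and then 9.71 and 9.69 (1.64-fold higher), Igfbp4 was 1.41-fold lower, and the other 15 of 17 genes did not pass, Ghr (0.16) and Igf1 (0.09) included.

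Among drug-metabolising enzymes, the count for cytochromes P450 and their receptors was near the share over all genes, 9.77% in either direction. Of 19 cytochromes P450 and their receptors 2 rose and 0 fell, both by small amounts (Cyp2d26 1.3-fold and Cyp2j5 1.21-fold), with Cyp3a11 at 0.15 and Cyp2e1 at -0.02. Since related members can share probes, which member a value stands for is uncertain. Of 23 conjugating enzymes 3 fell (beside 4.62% of all genes) and 0 rose, all of them among the 12 glucuronide, sulfate and methyl transferases. The median of these 12 was -0.605, and both late arrays lay below all controls for 7, beside 18.2% of all genes. The sulfotransferase Sult1b1 read 8.61, 9.02 and 8.93 and then 7.42 and 7.56 (2.57-fold lower), and Sult5a1 was 1.77-fold lower beside Nnmt. The 11 glutathione transferases held 0 calls. Of 13 redox genes, the regulator Nfe2l2 (Nrf2) read 9.07, 9.37 and 9.09 and then 10.00 and 10.30 (1.96-fold higher) and transketolase (Tkt) was 1.26-fold lower. The Nrf2 targets Gclc (1.03, adjusted p = 0.0561), Nqo1 (0.12), Hmox1 (-0.07) and Gclm (0.46) did not pass.

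Of 36 genes of the urea cycle and amino acid metabolism, 2 rose and 6 fell, beside 5.15% and 4.62% of all genes. Their median was -0.11. Argininosuccinate lyase (Asl) read 12.72, 12.64 and 12.63 in controls and 11.78 and 11.80 at 4 weeks (1.83-fold lower, log2 -0.87, SE 0.05, adjusted p = 0.00267) and passed in all 5 fits that left out 1 array. Nags, which makes the activator of the cycle, was 1.32-fold lower, while Cps1 (-0.01) and Otc (0.09) did not move beyond their spread. The transaminases Gpt2 and Got1 were 1.82- and 1.66-fold lower, and proline dehydrogenase (Prodh) 1.5-fold lower. On the route from methionine to cysteine, Cbs and Cth rose 1.4- and 1.6-fold and Mat1a fell 1.14-fold.

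Secreted plasma proteins did not move as a block. Their counts stand beside 5.15% higher and 4.62% lower over all genes. Of 21 acute phase genes 2 rose and 4 fell. The 18 that encode acute phase proteins held 2 higher and 3 lower, and the remaining lower gene was the receptor gene Il6ra. Serum amyloid Saa2 read 10.07, 11.45 and 9.89 in controls and 6.95 and 7.39 at 4 weeks (9.84-fold lower, log2 -3.30, SE 0.70, adjusted p = 0.0434), with control replicate 2 well above the other controls. Its near-copy Saa1 was at -2.95 (SE 0.83, adjusted p = 0.0876), and the signals of the pair are uncertain as to the member. Saa4, which is made constitutively, read 12.49, 12.72 and 12.79 and then 11.64 and 11.49 (2.14-fold lower), and orosomucoid 2 (Orm2) was 2.86-fold lower. The interleukin-6 receptor (Il6ra) read 10.48, 10.39 and 10.50 and then 9.15 and 9.01 (2.6-fold lower). Lbp, which binds bacterial lipopolysaccharide, went up from 11.25, 11.10 and 11.23 to 12.54 and 12.47 (2.49-fold), and haptoglobin (Hp) was at -0.05. Of 17 complement genes 2 rose and 3 fell: C9, of the membrane attack complex, read 12.002, 12.01 and 12.11 and then 10.50 and 10.42 (2.99-fold lower), C6 fell too, and Masp1 of the lectin pathway rose 1.6-fold. Of 22 coagulation genes 5 rose and 1 fell. The fibrinogen alpha chain (Fga) read 11.19, 11.10 and 11.26 and then 12.65 and 12.90 (3.01-fold higher, log2 1.59, SE 0.11, adjusted p = 0.00486) and passed in all 5 fits that left out 1 array. The gamma chain (Fgg) rose 1.31-fold, and the beta chain (Fgb), another part of the same protein, was at 0.22 (SE 0.06, adjusted p = 0.0697).

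Metal-handling genes held 5 higher and 1 lower among 21, beside 5.15% and 4.62% of all genes. Metallothionein 1 (Mt1), which binds zinc and copper, read 11.25, 9.69 and 11.15 in controls and 7.83 and 8.37 at 4 weeks (6.06-fold lower, log2 -2.60, SE 0.51, adjusted p = 0.0365). Control replicate 2 was the lowest control for it and for Mt2, which was at -2.33 (SE 0.77, adjusted p = 0.131). Leaving that array out gives 8.58-fold for Mt1. The manganese exporter Slc30a10 read 8.90, 8.91 and 8.62 and then 10.50 and 10.30 (3.01-fold higher), and the zinc importer Slc39a4 rose 1.64-fold. Among 14 iron genes, ferroportin (Slc40a1), the iron exporter, read 11.39, 11.33 and 11.51 and then 12.56 and 12.62 (2.27-fold higher). Hjv rose as given above. Hepcidin itself (Hamp) was at 0.36 (SE 0.12, adjusted p = 0.122) and the transferrin receptor (Tfrc) at -0.75, and neither passed.

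Immediate early genes rose where they changed. Of 19 genes of this kind 6 rose (beside 5.15% of all genes) and 0 fell. Their median of 0.90 was the highest of all lists. Jun, a subunit of the AP-1 factor, read 8.18, 8.02 and 7.83 in controls and 10.54 and 10.29 at 4 weeks (5.28-fold, log2 2.40, SE 0.13, adjusted p = 0.00267) and passed in all 5 fits that left out 1 array. Its partner Fos read 6.82, 6.55 and 7.0 and then 8.73 and 7.83 (2.82-fold), and Jund rose 1.38-fold, while Junb was at 0.16. The MAP kinase phosphatases Dusp6 and Dusp1 rose 3.66- and 2.55-fold, with Dusp6 at 8.71, 8.57 and 8.37 and then 10.65 and 10.20. Zfp36, which destabilises inflammatory transcripts, rose 1.97-fold. Differences of similar size for Egr1 (1.26), Klf6 (1.07) and Ier2 (0.98) did not pass.

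Growth and death genes differed by list. Of 40 cell cycle genes 2 rose and 1 fell, beside 5.15% and 4.62% of all genes. The higher genes were Ccnd1 and the retinoblastoma gene Rb1 (1.39-fold), and the lower gene was Wee1. Wee1 was the only call among the 17 genes of G2 and mitosis, whose median was 0.22. Of 19 p53 targets 4 rose, beside 5.15% of all genes, and 0 fell: Btg2 read 6.88, 6.97 and 6.69 and then 8.44 and 7.88, Trp53inp1 rose 2.17-fold, Ccng1 1.83-fold and Rrm2b 1.44-fold. Of these 4 calls Trp53inp1 and Rrm2b missed the threshold in the fit of 5 arrays. The feedback inhibitor Mdm2 was at 0.09 and Bbc3 at -0.02. Of 11 Bcl2 family genes the pro-apoptotic Bmf rose 1.84-fold. In the EGF receptor family, the ligand Nrg4 read 8.38, 8.69 and 8.56 in controls and 6.07 and 6.19 at 4 weeks (5.33-fold lower, log2 -2.41, SE 0.10, adjusted p = 0.00156) and passed in all 5 fits that left out 1 array. These late values lie near the mean level of the T and NK cell markers, so the fold describes signal. The receptor Erbb3 read 10.40, 10.22 and 10.47 and then 11.37 and 11.68 (2.24-fold higher), and Egfr was at -0.76 (SE 0.22, adjusted p = 0.0908). Nrg4 was also the only one of 17 hepatokines to pass.

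Genes of the cytoskeleton, cell junctions and matrix rose where they changed. Of 24 cytoskeletal genes 6 rose (beside 5.15% of all genes) and 0 fell. Gelsolin (Gsn), which severs actin filaments, read 7.98, 8.16 and 8.16 in controls and 11.22 and 10.73 at 4 weeks (7.33-fold, log2 2.87, SE 0.61, adjusted p = 0.0433), and the 2 week arrays differed widely at 8.23 and 10.40. The tubulin gene Tubb2a read 6.81, 6.83 and 5.93 and then 8.91 and 8.86 (5.13-fold). The keratins of hepatocytes, Krt18 and Krt8, rose 2.55- and 1.61-fold. Of 20 junction genes 6 rose (beside the same 5.15%) and 0 fell. Claudin 1 (Cldn1), a tight junction protein, read 9.17, 9.33 and 9.45 and then 11.57 and 11.44 (4.55-fold, log2 2.19, SE 0.10, adjusted p = 0.00162) and passed in all 5 fits that left out 1 array. Cingulin (Cgn), Tjp1 and Cldn2 of the same junction rose 1.78-, 1.68- and 1.71-fold. E-cadherin (Cdh1) was at 1.32 (SE 0.31, adjusted p = 0.0563).

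Of 43 matrix genes 7 rose (beside 5.15% of all genes) and 0 fell, with a median of 0.07. The lysyl oxidase Loxl4 read 6.24, 6.43 and 6.25 and then 8.79 and 9.05 (6.09-fold), and the secreted protein Spon2 read 6.38, 6.81 and 6.58 and then 8.84 and 8.85 (4.78-fold). The membrane protease Mmp14 read 8.94, 8.59 and 8.61 and then 9.89 and 10.15 (2.47-fold), and Col18a1, which hepatocytes make, rose 1.52-fold. The fibrillar collagens were at 0.07 (Col1a1), 0.07 (Col1a2) and 0.31 (Col3a1) and did not pass. Imprinted genes held 2 calls among 13 and fetal liver genes 0 among 9, beside 9.77% of all genes called in either direction. The maternally expressed noncoding RNA Rian read 4.75, 4.36 and 4.12 in controls, near the floor of the array, and 7.03 and 8.24 at 4 weeks (log2 3.22, SE 0.67, adjusted p = 0.042), and without Cre 4 wk replicate 1 the log2 difference is 3.83. No fold is given, since the table holds no measure of background. Its neighbour Meg3 was at 2.82 (SE 0.91, adjusted p = 0.122) and Igf2 at 1.80 (SE 1.17, adjusted p = 0.42), with Cre 4 wk replicate 2 the higher array for each. The decoy receptor Igf2r rose 2.06-fold, and alpha-fetoprotein (Afp) was at 0.55 (SE 0.33, adjusted p = 0.384).

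The counts for hepatocyte identity genes were also near the 9.77% called over all genes. Of 22 liver transcription factors 1 rose and 1 fell: Prox1 rose 1.56-fold, and Cebpb, a bZIP factor of the acute phase, read 10.38, 9.84 and 10.29 and then 8.82 and 9.20 (2.23-fold lower). Hnf4a was at 0.03 and Cebpa at 0.03. Albumin (Alb) read 14.49, 14.51 and 14.50 in controls and 14.51 and 14.52 at 4 weeks. Among 9 hepatocyte markers transferrin (Trf) rose 1.16-fold and 0 fell. Of 22 zonation markers 1 rose, the periportal protease gene Ctsc (1.69-fold). In 4 further lists 1 gene passed each: Atf6 1.29-fold lower among 24 genes of endoplasmic reticulum stress, Dnajb1 1.83-fold lower among 5 heat shock genes, Irf1 1.7-fold higher among 22 interferon genes, and Ndufb3 1.77-fold lower among 28 subunits of oxidative phosphorylation. The last list had a median of -0.14, and the late arrays of 16 of its members lay below all controls, beside 18.2% of all genes. The 5 heat shock genes had a median of -0.735. Both late arrays lay below all controls for 3 of them, and 2 of the 5 differences were above 0. In autophagy and the lysosome 3 of 15 rose and 2 fell: the cargo receptor Sqstm1 (p62) read 11.67, 11.69 and 11.79 and then 12.45 and 12.47 (1.67-fold higher), the acid lipase Lipa rose 1.79-fold, and Atg5, needed to form autophagosomes, fell 1.58-fold.

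Few markers of other cells passed, and several of these lists had a low signal. The control means were 5.5 to 5.6 for monocytes and neutrophils and 5.7 to 5.8 for B and plasma cells. They were 6.1 to 6.2 for T and NK cells and 6.2 to 6.3 for bile duct cells. Array medians lay between 7.07 and 7.09, so a change in these dim markers may not show. Of 64 markers of other liver cells, blood cells, pancreas and fat that were measured, 2 passed, beside 9.77% of all genes. Clec4g, of sinusoidal endothelium, read 10.89, 11.13 and 10.87 and then 11.39 and 11.74 (1.51-fold higher), while the median of the 10 markers of that cell type was 0.07. Sox9, of bile duct and progenitor cells, read 7.64, 7.83 and 7.56 and then 8.07 and 8.15 (1.35-fold higher). Krt19 was at 0.11 and Krt7 at 0.08, and the other 6 of the 7 markers did not pass. The mean log2 level of the 12 Kupffer cell markers was 8.48 to 8.75 in controls and 8.35 to 8.71 at 4 weeks, and 0 passed. Stellate cell markers had a mean of 8.21 to 8.32 and then 8.41 to 8.43, with 0 of 10 passing and all 10 differences above 0. Their part in the matrix values was not tested. Both Clec4g and Sox9 missed the threshold in the fit of 5 arrays (adjusted p 0.0801 and 0.0681).

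**Figure D5:**
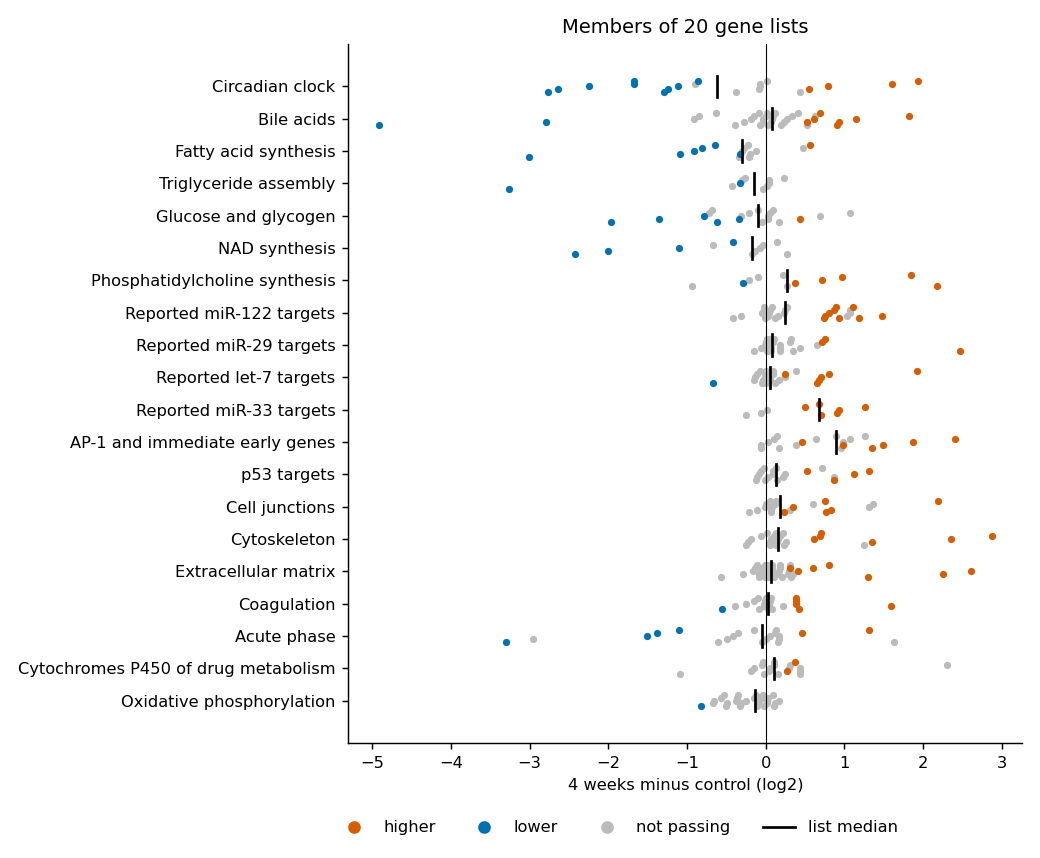
Difference between 4 weeks and control (log2, x axis) of each measured member of 20 gene lists (rows), with members that passed as higher in orange, lower in blue, and the rest in grey; black bars are list medians. The clock list has calls on both sides of 0, immediate early genes and reported miR-33 targets have medians of 0.90 and 0.68, and most members of the other lists sit near 0.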

How the data were processed

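RNA of whole mouse liver was hybridised to Affymetrix Gene ST arrays, per the labels' protocols, and the deposited series table holds 1 log2 value per probe set and array. GCOS 1.4 is named in the submitters' processing notes, while no source used here names the method of background correction and normalization. The deposited log2 values were used as they are: array medians lay between 7.07 and 7.09. Of 21093 probe sets, 17709 had 1 gene symbol, 187 several and 3197 none in the platform annotation. The probe set with the highest mean over the 7 arrays stood for each of 16819 genes.

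Groups came from the labels. The arrays were fitted as 3 groups with limma 3.58.1 in R 4.3.3 (lmFit and eBayes, two-sided, 4 residual degrees of freedom), and p-values were adjusted over all 16819 genes by the Benjamini-Hochberg method. A gene was called higher or lower at an adjusted p under 0.05. Fold changes are powers of 2 of the differences, and SE is the moderated standard error. No measure of background was available, so folds of genes with a low signal in a group may differ from the ratio of RNA. On data simulated for this comparison, 61.5% of genes changed by 0.5, 94% by 1 and 99.5% by 2 log2 units were recovered, with 5.03% false among the calls. The simulation drew independent normal noise for each gene at its moderated spread, without array effects. The same change was put into the 2 and 4 week groups. Far fewer genes were changed in it than were called on the real arrays, and recovery depends on that share. These rates hold for that setting and do not measure the error of the calls in the real arrays. The number of arrays limits the precision, and signals of near-identical genes may be shared.

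Of 1030 entries in 46 gene lists 916 were measured, and of 90 entries in 11 marker lists 73. The comparison and the lists were chosen with earlier results of these data known, and lists overlap. The rule for named genes took Dicer1 and Lpl, the 15 largest rises and falls among non-overlapping calls, the 10 smallest p-values, and from each list role up to 4 calls per direction and up to 3 other members with the highest means. Adam10, Adam17, Lin28a, Tef, Cyp2b13, Hao2 and other list members outside this rule were named after their values were seen. Alternatives were a fit of 5 arrays, a replicate block, a filter on dim genes, quantile normalization, median centring, an intensity trend, a mean over probe sets, and leaving out each array. The labels' replicate numbers were not used to pair arrays. MicroRNA and promoter sequences are from RefSeq tables on GRCm38.p6.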

Additional observations from a re-analysis of the deposited data

Results flagged for a closer look

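Nr1d1, the gene of the clock repressor REV-ERB alpha, stood apart because its difference between 4 and 2 weeks itself passed the test, with values on opposite sides of the controls at the 2 times. The log2 difference between 4 and 2 weeks was 2.65 (SE 0.12, adjusted p = 0.0155, limma), with both late arrays above and both 2 week arrays below all 3 controls. Groups of 2 and 3 arrays are too small for a test of outlying arrays.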

How the results depend on the processing

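The counts of calls kept to within 1.5 times of the values given (866 higher and 777 lower) in the fit of 5 arrays (1001 and 947), without dim genes (1124 and 1066 of 10091), after quantile normalization (939 and 882), with arrays centred on their median (972 and 867), with an intensity trend (798 and 696) and with the mean over probe sets (861 and 776). Leaving out 1 control or late array gave 37 to 266 higher and 26 to 191 lower genes, and the single gene between 4 and 2 weeks was lost in each of these 7 omissions, which left 0. Without either 2 week array the first contrast equals the fit of 5 arrays. No call of the 1643 reversed its sign under any of these settings. Of 175 named calls, 24 missed the threshold in the fit of 5 arrays, Cyp7a1 (adjusted p = 0.0682), Fasn (0.0565), Mt1 (0.0666) and Fos (0.0616) among them.

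The labels repeat replicate numbers across groups. Deviations of same-numbered arrays correlated at -0.0638 and -0.0651 between control and 4 weeks and at 0.1105 between 2 and 4 weeks. Deviations within a group of 2 arrays mirror each other, so these values cannot show whether same-numbered arrays were handled together. With the replicate number as a block, which leaves 2 residual degrees of freedom, 1 gene was called higher and 1 lower at 4 weeks, and 0 between 4 and 2 weeks. With 2 late arrays, small differences can be missed. In data simulated without array effects and with few genes changed, 61.5% of changes of 0.5 log2 units were recovered.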

Other observations

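Some genes differed more between the 2 late arrays than most called genes did between groups, and they were picked for this after their values were seen. Asparagine synthetase (Asns) read 6.75 on Cre 4 wk replicate 1 and 10.5 on replicate 2, against 8.94, 8.94 and 10.9 in controls, so one control stood apart as well. The growth regulator Myc read 6.58 and 9.79, below and above all controls. Cish, which STAT5 induces, read 7.11 and 9.22, and the controls lay between 6.69 and 7.30. The odorant-binding protein gene Obp2a read 7.32 and 10.1 and the cytochrome P450 gene Cyp3a16 6.59 and 4.06. None of these 5 genes passed at 4 weeks.

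Probe sets with several gene symbols or none were fitted apart: of 3384, 13 were higher and 26 lower at 4 weeks at the same threshold (limma).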
